A study of Mus musculus with 24 samples.

Results

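The immediate early genes described here are *Fos*, *Fosb*, *Junb*, *Egr1*, *Egr2*, *Npas4*, *Nr4a1*, *Ier2*, *Arc* and *Dusp1*, 10 of the 22274 genes in the deposited table, chosen by name as genes whose transcripts follow neuronal activity. RNA was sequenced from the brains of mice, male C57BL/6J animals per the study's methods, in 24 libraries that form 8 groups of 3. A pituitary stalk electrical lesion (PEL) destroys the stalk between hypothalamus and pituitary by a current, and Sham mice were the controls. The 18 hypothalamic libraries represent Sham surgery, PEL surgery followed to day 3 (PEL_3d) or day 10 (PEL_10d), and the same 3 conditions with growth hormone (GH), a pituitary hormone whose dose and schedule are not given in the sources used here. The 6 hippocampal libraries came from Sham and PEL_10d mice without GH. Both Sham groups and the group of Sham mice with GH carry the label Day 0, so the lesion and the day of collection cannot be told apart. Hypothalamic tissue was taken to hold the supraoptic and paraventricular nuclei, and the labels do not say whether each library is a separate animal, so the p-values measure only the spread between these libraries, which may be technical.

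Immediate early genes are transcribed within minutes of synaptic input or growth factor signalling, from proteins already present in the cell, and their transcripts decay within hours. Calcium and the ERK kinases switch them on through the transcription factors CREB and SRF, which wait at their promoters. In the hypothalamus *Fos* is the classical marker of vasopressin and oxytocin neurons stimulated by salt load or dehydration, and in the hippocampus *Arc* and *Egr1* mark neurons engaged in learning.

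Total counts per library ranged from 15095267 to 17973494, so all libraries were of similar depth. The members held between 8 counts (*Egr2*) and 2584 counts (*Arc*) in a library, and all 10 passed the filter on low counts in all comparisons. A pair of libraries went against the tissue in their labels. The library labelled hypothalamic Sham 1 held 0.453 FPKM of *Avp* (vasopressin) and 92.2 FPKM of *Neurod6*, a gene of hippocampal and cortical pyramidal neurons, where hypothalamic Sham 2 and 3 held 139.9 and 223.2 FPKM of *Avp*. The library labelled hippocampal Sham 1 held 139.0 FPKM of *Avp* and 0.429 FPKM of *Neurod6*, where hippocampal Sham 2 and 3 held 177.2 and 143.4 FPKM of *Neurod6*. Each of the pair thus held the markers of the other's labelled tissue. Whether they were exchanged was not tested, and no comparison uses them so. Both Sham 1 libraries were left out of the comparisons, which left 2 libraries in each Sham group without GH, and results with all libraries as labelled stand beside each comparison with Sham. Hippocampal Sham 3, named a hypothalamus in its tissue field, was kept by its title and its *Neurod6* level.

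The reference sequence just before the transcription start is shown for 4 members, *Fos* and *Nr4a1*, whose levels followed those of the other members closely across hypothalamic libraries, and *Junb* and *Egr2*, whose levels did not. Each run is the 150 bases before a RefSeq start in GRCm38.p6, on the gene's strand, from 5′ to 3′. Capitals mark the letters TGACG (the cAMP response element half-site that CREB can bind) or their complement CGTCA, the EGR site GCGNGGGCG on either strand, and the TATA box TATAAA. They lie at chr12:85473740-85473889 (*Fos*, + strand), chr15:101266696-101266845 (*Nr4a1*, + strand), chr8:84978749-84978898 (*Junb*, − strand) and chr10:67537719-67537868 (*Egr2*, + strand).
Fos: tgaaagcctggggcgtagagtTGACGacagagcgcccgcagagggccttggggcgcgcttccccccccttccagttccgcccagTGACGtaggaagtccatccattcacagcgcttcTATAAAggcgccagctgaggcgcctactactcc
Nr4a1: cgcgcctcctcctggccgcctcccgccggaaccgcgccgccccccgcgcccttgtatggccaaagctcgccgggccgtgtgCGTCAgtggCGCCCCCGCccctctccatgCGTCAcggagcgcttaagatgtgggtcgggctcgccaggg
Junb: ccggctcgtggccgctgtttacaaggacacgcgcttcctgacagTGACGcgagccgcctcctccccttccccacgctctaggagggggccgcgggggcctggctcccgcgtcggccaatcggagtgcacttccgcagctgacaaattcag
Egr2: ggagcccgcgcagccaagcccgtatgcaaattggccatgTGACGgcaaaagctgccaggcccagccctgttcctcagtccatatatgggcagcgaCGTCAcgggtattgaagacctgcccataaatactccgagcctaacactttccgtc

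The half-site was found in all 4 runs, in the pair that moved with the other members and in the pair that did not. *Egr2* has 5 RefSeq starts, and over 250 bases the half-site lay before 3 of them, the start shown included, and was not found before the other two. In *Fos* it lay at positions -129 to -125 and -66 to -62 from the start, with the TATA box at -33 to -28. In *Nr4a1* it lay at -69 to -65 and -40 to -36 on the opposite strand, with the EGR site between them. Among the 7 members with a window the EGR site was also found in *Fosb*, at -50 to -42. Over the 250 bases before the start, the half-site was also present in *Fosb*, *Npas4* and *Dusp1*, and the full 8-letter element TGACGTCA only in *Dusp1* among the 7 members with a window, at -143 to -136. Of 32851 mouse windows of 250 bases, 17.8% held the half-site on either strand, 1.55% the full element, 4.7% the EGR site and 12.4% the TATA box. The CArG box, the site of SRF, was searched by its consensus and found in *Egr2*. It lay at -72 to -63 from the start shown, and a separate site lay at -72 to -63 from another start. Of all single windows 1.47% held it, whereas *Egr2* had 5 starts searched. The AP-1 site TGANTCA, present in 6.75% of windows, was found in none of the 7. Windows of *Arc*, *Egr1* and *Ier2* were not analysed here.

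**Figure D1:**
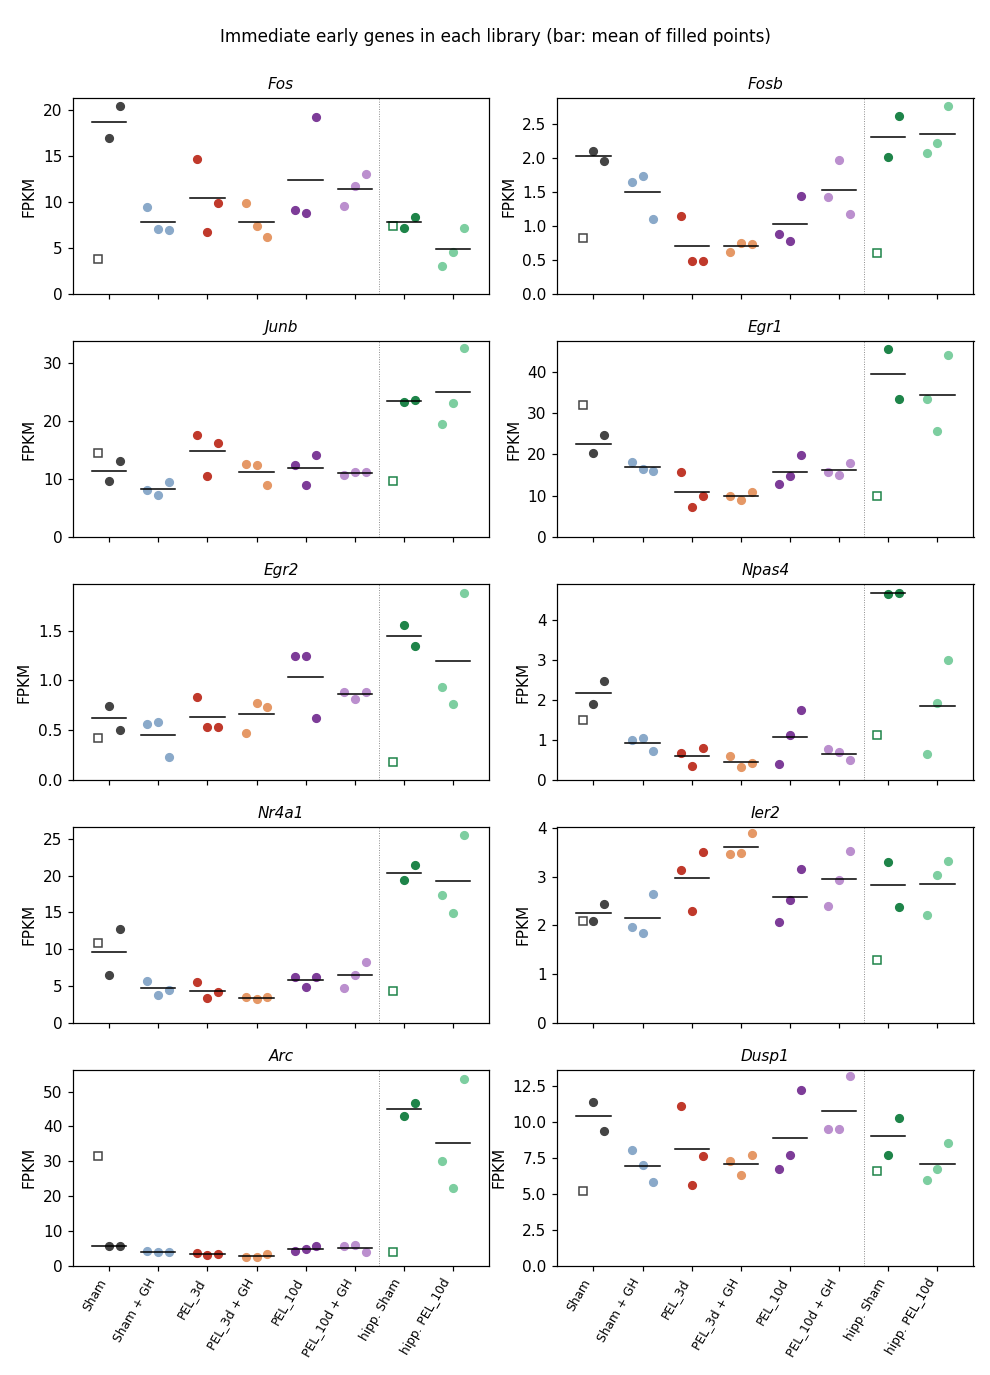
FPKM of each immediate early gene (y axis) in every library, by group (x axis). Filled points are libraries used in the comparisons, open squares are the Sham 1 libraries whose tissue markers go against their labels, and bars are means of filled points. The highest hypothalamic *Fos*, *Egr1*, *Npas4* and *Nr4a1* levels among filled points lie in Sham, and hippocampal *Arc* lies between 22.3 and 53.7 FPKM, above every filled hypothalamic point.

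Levels are given as FPKM, read counts scaled by length and library size, as deposited, and fold changes are log2 differences of TMM-normalized counts with their standard error. For *Egr2* and *Fosb* the deposited FPKM did not track the counts. *Egr2* held 1.247 FPKM from 25 counts in hypothalamic PEL_10d 2 and 0.617 FPKM from 28 counts in PEL_10d 3. *Fosb* held 1.184 FPKM from 76 counts in PEL_10d with GH 3 and 1.967 FPKM from 69 counts in PEL_10d with GH 2. FPKM levels and fold changes of these genes can therefore differ. A change is called at an edgeR quasi-likelihood adjusted p under 0.05, with adjustment over all genes tested. The groups of the first comparisons share Sham 2 and 3, so their results are not independent of each other. Where groups are said not to overlap, this describes the libraries only, as the share of all genes without overlap was not counted.

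At day 3 after the lesion, 6 of the 10 members were lower in the hypothalamus than in Sham, and none was higher. Those that fell were *Fos* and *Fosb*, which code for subunits of the AP-1 transcription factor, *Egr1*, a zinc finger factor of plasticity, *Npas4*, a factor induced by calcium entry in neurons, *Nr4a1*, an orphan nuclear receptor, and *Arc*, a synaptic protein that removes AMPA receptors. Their falls ranged from 1.70-fold (*Arc*) to 3.58-fold (*Npas4*). *Junb*, *Egr2*, *Ier2* and *Dusp1* did not pass the test, though *Dusp1* was called lower in a fit with the replicate number as a block. Of all 14905 genes tested, 40.5% were called in either direction and 18.2% were lower.

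*Npas4* (ENSMUSG00000045903, chromosome 19, 4984355 to 4990316, − strand) held 1.89 and 2.47 FPKM in Sham and 0.675, 0.340 and 0.804 FPKM in PEL_3d. The lowest Sham library was above the highest PEL_3d library, with a log2 fold change of -1.84 ± 0.31 (edgeR adjusted p = 0.00108). It was the only member still called with all libraries as labelled, at -1.68 (edgeR adjusted p = 0.0363), where 11.4% of genes were called. Over its 11 alternatives the *Npas4* edgeR or DESeq2 adjusted p ranged from 2.33e-05 to 0.0363.

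*Fosb* (ENSMUSG00000003545, chromosome 7, 19302696 to 19310051, − strand) held 2.11 and 1.95 FPKM in Sham and 1.15, 0.483 and 0.489 FPKM in PEL_3d. All PEL_3d libraries were below both Sham libraries, with a log2 fold change of -1.50 ± 0.35 (edgeR adjusted p = 0.00599), and the call was lost without Sham 2 and with all libraries as labelled. *Fos* (ENSMUSG00000021250, chromosome 12, 85473890 to 85477273, + strand) held 16.97 and 20.4 FPKM in Sham and 14.7, 6.80 and 9.95 FPKM in PEL_3d. The groups did not overlap, but the highest PEL_3d library was close to the lower Sham library, and the log2 fold change was -0.85 ± 0.23 (edgeR adjusted p = 0.0133). *Fos* was not called by DESeq2, nor without either Sham library, nor with all libraries as labelled, where its log2 fold change was -0.40 (edgeR adjusted p = 0.748, the highest of a range from 3.28e-07 over its alternatives).

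*Egr1* (ENSMUSG00000038418) held 20.3 and 24.7 FPKM in Sham and 15.6, 7.16 and 9.85 FPKM in PEL_3d, a log2 fold change of -1.06 ± 0.23 (edgeR adjusted p = 0.00469). *Nr4a1* (ENSMUSG00000023034, chromosome 15, 101254269 to 101274795, + strand) held 6.45 and 12.7 FPKM in Sham and 5.49, 3.37 and 4.14 FPKM in PEL_3d, a log2 fold change of -1.15 ± 0.26 (edgeR adjusted p = 0.00522). Both genes were lower in every PEL_3d library than in either Sham library, and the Sham pair was widest apart for *Nr4a1*. With all libraries as labelled, their edgeR adjusted p were 0.0596 and 0.0528, and without Sham 3 neither was called. Over the alternatives the edgeR or DESeq2 adjusted p reached 0.0684 for *Egr1* and 0.117 for *Nr4a1*, from 2.11e-09 and 6.35e-06. *Arc* (ENSMUSG00000022602, chromosome 15, 74669083 to 74672570, − strand) held 5.53 and 5.69 FPKM in Sham and 3.65, 2.96 and 3.44 FPKM in PEL_3d, so that the groups were narrow and well apart. Its log2 fold change was -0.76 ± 0.13 (edgeR adjusted p = 0.00128). The labelled Sham 1 library held 31.5 FPKM of *Arc*, in the hippocampal range, and with it the *Arc* log2 fold change was -2.15 (edgeR adjusted p = 0.137, in a range from 0.00036 over the alternatives).

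The members that did not pass were not alike in direction. *Junb* (ENSMUSG00000052837, chromosome 8, 84974484 to 84978718, − strand), an AP-1 partner of FOS that is also induced in glia and immune cells, held 9.70 and 13.2 FPKM in Sham and 17.5, 10.6 and 16.2 FPKM in PEL_3d. The groups overlapped (log2 fold change 0.35 ± 0.20, edgeR adjusted p = 0.189). *Ier2* (ENSMUSG00000053560, chromosome 8, 84661331 to 84662852, − strand), a nuclear protein of the early growth factor response, held 2.09 and 2.44 FPKM in Sham and 3.14, 2.30 and 3.51 FPKM in PEL_3d, which also overlapped (0.38 ± 0.25, edgeR adjusted p = 0.26). *Dusp1* (ENSMUSG00000024190, chromosome 17, 26505590 to 26562128, − strand), a phosphatase that switches MAP kinases off, held 11.3 and 9.37 FPKM in Sham and 11.1, 5.59 and 7.64 FPKM in PEL_3d. *Egr2* (ENSMUSG00000037868, chromosome 10, 67535475 to 67542188, + strand), an EGR factor known also from Schwann cells and macrophages, was low in both groups, from 0.497 to 0.836 FPKM. Across all libraries it held 8 to 88 counts.

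The library labelled hippocampal Sham 1, with the *Avp* and *Neurod6* levels of a hypothalamic library, did not lie with Sham 2 and 3 in these genes. It held 7.43 FPKM of *Fos*, 0.60 FPKM of *Fosb*, 9.89 FPKM of *Egr1* and 4.34 FPKM of *Nr4a1*, inside the PEL_3d range of each. Its *Npas4* (1.12 FPKM) and *Arc* (3.81 FPKM) were above the highest PEL_3d library. Set beside Sham 2 and 3, this library overlapped PEL_3d in 4 of the 6 called genes, and the same count over all genes was not made.

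The fixed lists of related genes held calls in both directions. Of 36 other rapid primary response genes, 20 were higher in PEL_3d than in Sham, 3 were lower and 13 were not called, with a median log2 fold change of 0.52, against -0.81 for the 10 members and -0.01 for all genes. *Fosl1*, another AP-1 subunit, held 0 counts in both Sham libraries and 16, 10 and 12 counts in PEL_3d (edgeR adjusted p = 0.00212). *Atf3*, a stress-induced factor known from injured neurons, rose by 4.97 ± 0.25 on the log2 scale (edgeR adjusted p = 2.71e-07), and *Cebpd*, a factor of the acute inflammatory response, by 2.11 ± 0.17 (edgeR adjusted p = 5.04e-06). *Ccn1*, a matrix protein gene driven by SRF, rose by 1.71 ± 0.29 (edgeR adjusted p = 0.00098).

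Of 21 delayed and secondary response genes of neurons, 4 were higher and 8 lower. *Baz1a*, a chromatin remodeling subunit, rose by 2.97 ± 0.29 on the log2 scale (edgeR adjusted p = 2.29e-05), *Ptgs2*, the cyclooxygenase of inflammation and synaptic activity, by 1.79 ± 0.42 (edgeR adjusted p = 0.00643) and *Inhba*, an activin subunit, by 1.60 ± 0.22 (edgeR adjusted p = 0.000231). *Pcsk1*, a prohormone convertase, was lower at -0.81 ± 0.09 (edgeR adjusted p = 4.86e-05). Of 11 tested MAP kinase phosphatases and feedback inhibitors, 2 were higher and 3 lower. *Dusp6*, the phosphatase of ERK, rose by 1.07 ± 0.16 (edgeR adjusted p = 0.000367), whereas the member *Dusp1* was at -0.36 ± 0.21 (edgeR adjusted p = 0.204). Of 22 upstream factors and kinases 6 were higher and 7 lower, led by *Elk3*, an SRF partner, at 1.53 ± 0.13 (edgeR adjusted p = 7.65e-06). Of 12 subunits and partners 3 were higher and 1 lower. *Batf*, an AP-1 family factor of immune cells, held 4 and 3 counts in Sham and 23, 23 and 25 counts in PEL_3d (edgeR adjusted p = 0.00169), and *Rxrg*, a retinoid X receptor, was lower at -0.82 ± 0.11 (edgeR adjusted p = 0.000227). *Nab2*, a corepressor of EGR factors, rose by 0.47 ± 0.17 (edgeR adjusted p = 0.0461).

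Cell type markers moved in the same comparison. Of 4 neuron markers, 3 were lower in PEL_3d and none was higher. *Rbfox3*, the NeuN gene of mature neurons, held 39.0 and 36.0 FPKM in Sham and 26.0, 25.0 and 24.1 FPKM in PEL_3d, a log2 fold change of -0.65 ± 0.08 (edgeR adjusted p = 0.000114). The 4 neuron markers summed to 819.2 to 843.1 FPKM in Sham and to 672.0 to 759.5 FPKM in PEL_3d. All 7 markers of microglia and macrophages were higher, with sums of 71.6 to 80.0 FPKM in Sham and 369.4 to 440.0 FPKM in PEL_3d. Of 5 astrocyte markers 4 were higher and 1 lower, with sums of 431.6 to 462.7 FPKM in Sham and 1102 to 1244 FPKM in PEL_3d. Of 5 endothelial markers 3 were higher, with sums of 62.2 to 63.0 FPKM and 99.1 to 109.3 FPKM. Of 8 hypothalamic markers 6 were lower, with sums of 1134 to 1213 FPKM in Sham and 730.9 to 847.0 FPKM in PEL_3d. Among them were *Avp* at -2.76 ± 0.19 (edgeR adjusted p = 1.83e-06), *Oxt*, the oxytocin gene, at -1.43 ± 0.38 (edgeR adjusted p = 0.0119) and *Agrp*, a feeding peptide gene, at -1.35 ± 0.35 (edgeR adjusted p = 0.0117). Also lower were 2 of 5 choroid plexus, 2 of 6 striatal and 2 of 4 tested pituitary markers. Of 4 tested hippocampal markers 2 were higher and 1 lower, of 4 thalamic markers 1 was higher and 1 lower, and no oligodendrocyte or blood marker was called. No neuron marker was at 0 in any library. In bulk tissue, fewer cells of a type and less RNA per cell cannot be told apart, and the part of these shifts in the fall of the 6 members was not tested.

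**Figure D2:**
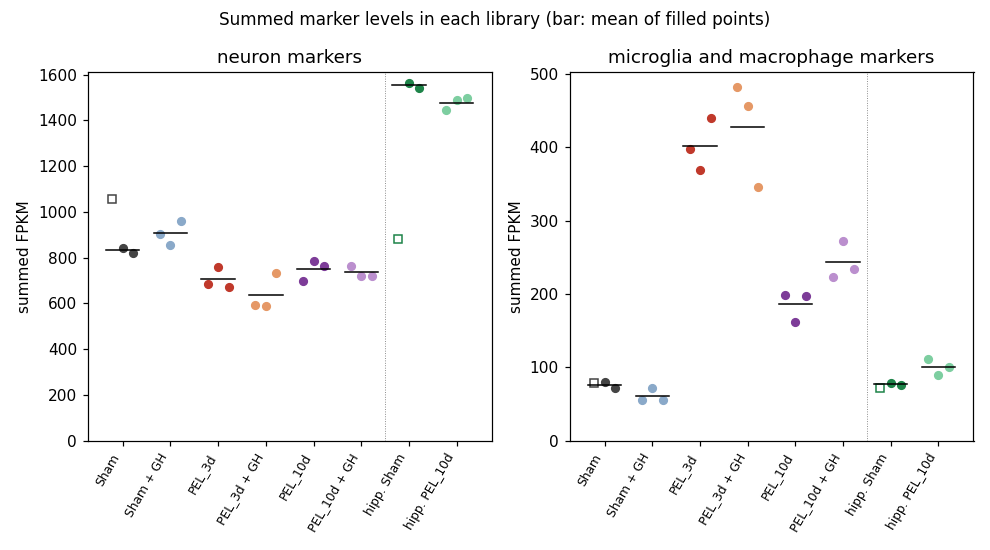
Summed FPKM (y axis) of 4 neuron markers and of 7 microglia and macrophage markers in every library, by group (x axis). Filled points are libraries used, open squares the Sham 1 libraries left out, and bars the means of filled points. PEL_3d neuron sums lie at 672.0 to 759.5 FPKM, below both filled Sham points, and PEL_3d microglia sums at 369.4 to 440.0 FPKM, above them.

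At day 10 after the lesion, *Fosb* alone was called in the hypothalamus against Sham. It held 0.881, 0.783 and 1.45 FPKM in PEL_10d, below 2.11 and 1.95 FPKM in Sham, a log2 fold change of -1.02 ± 0.25 (edgeR adjusted p = 0.0374). This call was lost in 6 of 11 alternatives, among them the removal of either Sham library and of PEL_10d 1 or 2. Of all genes 9.4% were called in either direction and 1.43% were lower. *Nr4a1* at -0.75 ± 0.25 (edgeR adjusted p = 0.0995), *Egr1* at -0.53 ± 0.17 (edgeR adjusted p = 0.0929) and *Npas4* at -1.11 ± 0.44 (edgeR adjusted p = 0.156) had an unadjusted p under 0.05 without passing adjustment, as *Fosb* had, which makes 4 of 10 members against 24.5% of all genes. *Fos* held 9.10, 8.79 and 19.3 FPKM, so that PEL_10d 3 was at the Sham level and the others at about the PEL_3d level (-0.62 ± 0.30, edgeR adjusted p = 0.247). Without PEL_10d 3, edgeR called 3 members, *Fos*, *Fosb* and *Egr1*. DESeq2 on all kept libraries called 3 members, *Fosb*, *Egr1* and *Nr4a1*. The shares of all genes above are those of edgeR on all kept libraries. Shares for these alternatives are not given here, so their counts cannot be set against them. With all libraries as labelled edgeR called none, against 1.84% of all genes, and 2 had an unadjusted p under 0.05, against 10.9% of all genes.

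Of 35 other rapid response genes tested at day 10, 3 were higher and none was lower, among them *Atf3* at 3.74 ± 0.41 (edgeR adjusted p = 0.00151) and *Gadd45b*, a growth arrest gene, at 0.91 ± 0.21 (edgeR adjusted p = 0.0269). The library labelled hippocampal Sham 1 held 0.60 FPKM of *Fosb*, below all PEL_10d libraries. Of the neuron markers 2 of 4 and of the hypothalamic markers 2 of 8 were lower at day 10, the neuron markers with sums of 697.5 to 784.5 FPKM, and of the microglia markers 4 of 7 were higher, with sums of 161.3 to 198.8 FPKM. Of the others, 3 of 5 astrocyte markers were higher, with sums of 787.1 to 896.0 FPKM against 431.6 to 462.7 FPKM, as were 3 of 5 endothelial, 2 of 4 oligodendrocyte, 1 of 4 tested hippocampal and 1 of 4 thalamic markers. Their part in the *Fosb* result was not tested.

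Between the lesion groups, *Arc* was the only member called. It was higher at day 10, with 4.15, 4.91 and 5.68 FPKM against 3.65, 2.96 and 3.44 FPKM at day 3, and the groups did not overlap. The log2 fold change was 0.56 ± 0.15 (edgeR adjusted p = 0.0308), and the call was lost in 5 of the 6 fits made with 1 library removed. Of all genes 18.5% were called and 6.33% were higher. The other members ranged from -0.31 (*Junb*) to 0.73 (*Npas4*). The other rapid response genes fell between day 3 and day 10 where called, 14 of 36 lower and none higher. *Fosl1* held 2, 2 and 1 counts at day 10 against 16, 10 and 12 at day 3 (edgeR adjusted p = 0.00675). *Ccn1* was at -1.24 ± 0.29 (edgeR adjusted p = 0.0185), *Cebpd* at -1.38 ± 0.14 (edgeR adjusted p = 0.00018) and *Atf3* at -1.22 ± 0.22 (edgeR adjusted p = 0.00571). Of the markers, 6 of 7 for microglia were lower at day 10, and 4 of 4 for oligodendrocytes and 2 of 8 for hypothalamus were higher. Of the neuron markers *Rbfox3* was higher at day 10 (0.29 ± 0.07, edgeR adjusted p = 0.0236) and *Tubb3* lower (-0.35 ± 0.08, edgeR adjusted p = 0.0182). Of 5 choroid plexus markers 3 were higher, of 6 striatal markers 2 and of 4 tested blood markers 1. Of 5 endothelial markers 2 were lower, of 5 astrocyte markers 1 was higher and 2 lower, and 1 in each direction was called of 4 tested hippocampal and of 4 thalamic markers. Their part in the *Arc* result was not tested.

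Growth hormone was compared with no GH within each surgery group. In Sham mice *Fos* and *Npas4* were lower with GH, and all 10 log2 fold changes were below 0, from -0.06 (*Ier2*) to -1.36 (*Npas4*). Of all genes 1.09% were called in either direction and 0.296% were lower. *Fos* held 9.49, 7.12 and 6.997 FPKM with GH against 16.97 and 20.4 FPKM without, a 2.35-fold fall (log2 fold change -1.24 ± 0.13, edgeR adjusted p = 0.00121). *Npas4* held 0.989, 1.05 and 0.731 FPKM with GH against 1.89 and 2.47 FPKM without (-1.36 ± 0.23, edgeR adjusted p = 0.0145). For both genes every library with GH was below both Sham libraries. The *Npas4* call was lost without Sham 3 and without Sham with GH 1, and its edgeR or DESeq2 adjusted p reached 0.697 over the alternatives.

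*Arc* (-0.49 ± 0.11, edgeR adjusted p = 0.0543) and *Nr4a1* (-1.02 ± 0.23, edgeR adjusted p = 0.0584) missed the threshold, and 7 members had an unadjusted p under 0.05, against 15% of all genes. The calls depended on the Sham pair and on the fit. With all libraries as labelled edgeR called no member, 5 had an unadjusted p under 0.05 against 5.46% of all genes, and 0% of all genes were called. In a fit over all hypothalamic groups no member was called. Of the 10 member levels of the library labelled hippocampal Sham 1, 4 lay inside the range of Sham with GH, 2 above it and 4 below it, and all 10 lay below both hypothalamic Sham 2 and 3. None of the 4 neuron markers was called between Sham with GH and Sham, with sums of 855.1 to 960.0 FPKM against 819.2 to 843.1 FPKM, and none of the 8 hypothalamic markers was. Of 5 endothelial markers, *Cldn5* was lower with GH (-0.83 ± 0.16, edgeR adjusted p = 0.0342) and *Slco1a4* higher (0.33 ± 0.07, edgeR adjusted p = 0.0397), and their part in the result was not tested.

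In the lesion groups GH moved no member past the test. At day 3 edgeR called none, no member had an unadjusted p under 0.05 (6.8% of all genes had) and DESeq2 called none, with 0.027% of all genes called. The log2 fold changes ranged from -0.53 ± 0.36 (*Npas4*) to 0.30 ± 0.20 (*Ier2*). At day 10 edgeR and DESeq2 called none, 1 member, *Fosb* at 0.53 ± 0.22 (edgeR adjusted p = 0.809), had an unadjusted p under 0.05 by edgeR, against 6.14% of all genes, and 0% of all genes were called.

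The difference in the effect of GH between lesion and Sham mice was tested as an interaction, and edgeR and DESeq2 called no member. At day 3 the edgeR interaction called 0.0462% of all genes (0% with all libraries as labelled), and 1 member, *Fos*, had an unadjusted p under 0.05, against 10.5% of all genes. At day 10 it called 0% of all genes (0% as labelled), and 5 members had an unadjusted p under 0.05, against 9.04% of all genes. All 10 interaction values were above 0 at both days, and at day 10 they ranged from 0.26 (*Ier2*) to 1.20 (*Nr4a1*). The day 3 value of *Junb*, 0.066, was below 0 in some fits made with 1 library removed, down to -0.16 without Sham 3. All interaction values draw on Sham 2 and 3 and on the Sham with GH libraries, so their shared sign is not independent between members or days.

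With GH in both groups, the comparison of PEL_3d with Sham used 3 libraries a group and neither of the doubted libraries. *Fosb*, *Egr1*, *Npas4*, *Nr4a1* and *Arc* were lower after the lesion, and *Junb* and *Ier2* were higher. Of all genes 52.1% were called, 26.9% higher and 25.2% lower. These 5 genes were also lower in PEL_3d against Sham without GH, in libraries that the comparison with GH does not contain.

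*Egr1* held 18.2, 16.4 and 16.0 FPKM in Sham with GH and 9.98, 8.96 and 10.9 FPKM in PEL_3d with GH. The groups were well apart, with a log2 fold change of -0.79 ± 0.09 (edgeR adjusted p = 7.73e-05). *Fosb* held 1.65, 1.74 and 1.11 FPKM against 0.619, 0.749 and 0.729 FPKM after the lesion (-1.16 ± 0.24, edgeR adjusted p = 0.00269). The *Fosb* and *Egr1* calls held in all 11 alternatives. *Npas4* held 0.989, 1.05 and 0.731 FPKM against 0.594, 0.312 and 0.431 FPKM (-1.02 ± 0.28, edgeR adjusted p = 0.0125), a call lost without Sham with GH 2 (edgeR adjusted p = 0.056, the highest of its alternatives from 0.0117) and in the fit over all hypothalamic groups.

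*Arc* held 4.14, 3.79 and 3.90 FPKM against 2.56, 2.49 and 3.45 FPKM (-0.50 ± 0.15, edgeR adjusted p = 0.0191). *Nr4a1* held 5.67, 3.80 and 4.50 FPKM against 3.53, 3.26 and 3.48 FPKM (-0.46 ± 0.16, edgeR adjusted p = 0.0359). For both genes all lesion libraries were below all Sham libraries, yet each call was lost in 4 of the 6 fits made with 1 library removed (lesion 1 or 2, Sham 1 or 3), and over all alternatives the edgeR or DESeq2 adjusted p reached 0.0726 for *Arc* and 0.165 for *Nr4a1*. *Fos* did not differ beyond its spread, with 9.49, 7.12 and 6.997 FPKM against 9.92, 7.44 and 6.19 FPKM (-0.03 ± 0.18, edgeR adjusted p = 0.91).

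*Ier2* held 1.97, 1.84 and 2.64 FPKM in Sham with GH and 3.46, 3.49 and 3.90 FPKM in PEL_3d with GH, with no overlap (0.72 ± 0.20, edgeR adjusted p = 0.012), and was lost without Sham with GH 2 (edgeR adjusted p = 0.0518, the highest of its alternatives from 0.00774). *Junb* held 8.12, 7.22 and 9.52 FPKM against 12.6, 12.3 and 8.95 FPKM, with 1 lesion library inside the Sham range (0.42 ± 0.16, edgeR adjusted p = 0.0452), and was lost in 4 of the 6 fits without 1 library. *Egr2* (0.28 ± 0.46) and *Dusp1* (-0.04 ± 0.14) were not called.

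Of 35 other rapid response genes tested, 20 were higher and 6 lower, with a median log2 fold change of 0.45 against -0.25 for the members. *Atf3* rose by 4.26 ± 0.17 (edgeR adjusted p = 1.34e-07) and *Ccn1* by 1.98 ± 0.21 (edgeR adjusted p = 4e-05), and *Nr4a2*, a relative of *Nr4a1*, was lower at -1.40 ± 0.28 (edgeR adjusted p = 0.00188). Of 21 delayed neuronal genes 3 were higher and 11 lower. Neuron markers again moved with the members, 3 of 4 being lower, with sums of 855.1 to 960.0 FPKM in Sham with GH and 588.3 to 732.3 FPKM in PEL_3d with GH. All 7 microglia markers were higher, with sums of 55.3 to 71.5 FPKM against 345.1 to 481.4 FPKM. Of 8 hypothalamic markers 5 were lower, of 6 striatal markers 3 and of 5 choroid plexus markers 2. Of 5 astrocyte markers 4 were higher and 1 lower, with sums of 447.1 to 465.1 FPKM in Sham with GH and 997.9 to 1339 FPKM in PEL_3d with GH, and of 5 endothelial markers 3 were higher and 1 lower. Of 4 tested blood markers 2 were higher, of 4 thalamic markers 1, and of 5 tested hippocampal markers 1 was higher and 1 lower. Their part in the result was not tested.

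**Figure D3:**
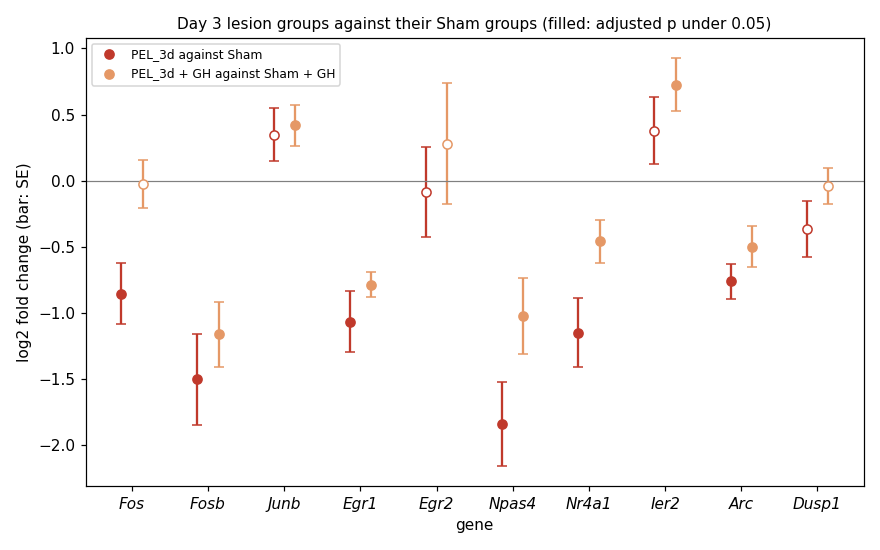
Log2 fold change (y axis) of each member (x axis) at day 3 after the lesion, without GH and with GH in both groups. Points are edgeR estimates, bars 1 standard error, and filled points have an adjusted p under 0.05. *Fosb*, *Egr1*, *Npas4*, *Nr4a1* and *Arc* are filled and below 0 in both comparisons, while *Fos* is at -0.85 without GH and at -0.03 with GH.

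At day 10 with GH, no member was called lower than in Sham with GH, and *Fos*, *Junb* and *Dusp1* were called higher. Of all genes 30.9% were called and 17.7% were higher. *Fos* held 9.56, 11.8 and 13.1 FPKM against 9.49, 7.12 and 6.997 FPKM, where the lowest lesion library was just above the highest Sham library (0.53 ± 0.15, edgeR adjusted p = 0.0216). *Dusp1* held 9.46, 9.51 and 13.2 FPKM against 8.02, 6.97 and 5.82 FPKM (0.60 ± 0.17, edgeR adjusted p = 0.0203). *Junb* held 10.7, 11.1 and 11.1 FPKM against 8.12, 7.22 and 9.52 FPKM (0.38 ± 0.12, edgeR adjusted p = 0.0287).

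None of the 3 genes overlapped between the groups, but how many of all genes did not overlap was not counted. None of the 3 was called in the fit over all hypothalamic groups or without Sham with GH 2. Over all alternatives the edgeR or DESeq2 adjusted p reached 0.2 for *Fos*, 0.162 for *Junb* and 0.0844 for *Dusp1*. *Fosb* (-0.06 ± 0.20) and *Egr1* (-0.09 ± 0.08) were near 0 at day 10. *Npas4* held 0.768, 0.697 and 0.487 FPKM against 0.989, 1.05 and 0.731 FPKM in Sham with GH, and was not called. All 4 neuron markers and 3 of 8 hypothalamic markers were lower in PEL_10d with GH, the neuron markers with sums of 719.0 to 765.0 FPKM against 855.1 to 960.0 FPKM. All 7 microglia markers were higher, with sums of 223.5 to 272.0 FPKM against 55.3 to 71.5 FPKM. The 4 oligodendrocyte markers (3071 to 3547 FPKM against 1705 to 1905 FPKM) and the 5 blood markers (44.9 to 213.1 FPKM against 17.1 to 21.8 FPKM) were higher too, as were 3 of 5 astrocyte, 3 of 5 endothelial, 3 of 4 tested pituitary, 1 of 4 thalamic and 1 of 5 tested hippocampal markers. Of 5 choroid plexus markers 1 was lower, and their part in the result was not tested. The library PEL_10d with GH 3, which held the highest *Fos*, *Dusp1* and *Nr4a1* levels of its group, also summed to 5552 FPKM of anterior pituitary markers, where the lowest of its group summed to 32.3 FPKM. Without it none of these 3 genes was called and *Arc* was.

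**Figure D4:**
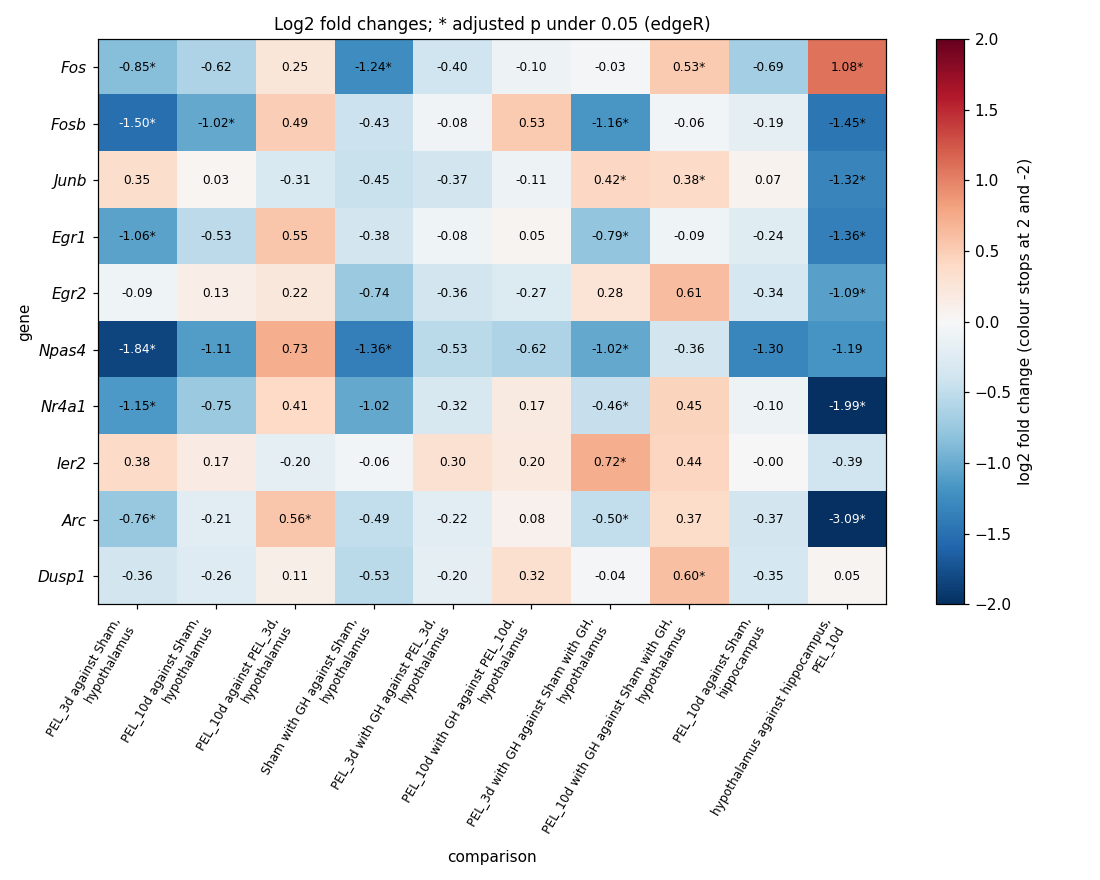
Log2 fold change of each member (rows, y axis) in each comparison (columns, x axis), with blue for lower and red for higher in the first-named group. An asterisk marks an edgeR adjusted p under 0.05, and colours stop at 2 and -2. Asterisks stand beside 6 members in PEL_3d against Sham, 1 in PEL_10d against Sham and 0 in PEL_10d against Sham of the hippocampus.

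In the hippocampus no member was called between PEL_10d and Sham by edgeR or DESeq2, and 6.15% of all genes were called by edgeR. *Npas4* held 0.641, 1.93 and 3.01 FPKM in PEL_10d against 4.66 and 4.69 FPKM in Sham (-1.30 ± 0.43, edgeR adjusted p = 0.114). *Fos* held 3.07, 4.54 and 7.17 FPKM against 7.24 and 8.35 FPKM (-0.69 ± 0.29, edgeR adjusted p = 0.192). Both genes were lower in every PEL_10d library than in either Sham library, and they were the 2 members with an unadjusted p under 0.05, against 24.5% of all genes. *Arc* ranged from 22.3 to 53.7 FPKM in PEL_10d and held 43.0 and 46.7 FPKM in Sham, so its groups overlapped. Without hippocampal PEL_10d 3, which held the highest level of its group for each of these genes, 3 members were called (*Npas4*, *Fos* and *Arc*), and without PEL_10d 1 only *Npas4* was. These fits held 2 libraries a group. The share of all genes called in them is not given here, so their calls cannot be set against it.

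With all libraries as labelled, edgeR called no member, none had an unadjusted p under 0.05 (10.2% of all genes had), and 0% of all genes were called. In that fit *Fosb*, *Egr1*, *Egr2*, *Nr4a1*, *Ier2* and *Arc* moved from below to above 0. *Nr4a1* went from -0.105 to 0.355 and *Arc* from -0.367 to 0.169. Choroid plexus markers summed to 4315 to 5407 FPKM in hippocampal Sham 2 and 3 and to 37.6 to 795.0 FPKM in PEL_10d, with 4 of 5 lower. Of 6 hippocampal markers *Neurod6* (-0.51 ± 0.12, edgeR adjusted p = 0.0467) and *Spink8* (-0.63 ± 0.13, edgeR adjusted p = 0.035) were lower in PEL_10d and *Fibcd1* was higher (0.58 ± 0.11, edgeR adjusted p = 0.023). Of 5 blood markers 2 were higher, with sums of 49.4 to 144.5 FPKM against 21.6 to 37.1 FPKM, of 5 astrocyte markers 1 was higher, of 6 striatal markers 1 was higher and 1 lower, and none of the 4 neuron or 7 microglia markers was called. The part of these differences in the member values was not tested. The difference between the PEL_10d effects of the tissues, tested as an interaction, called no member by edgeR or DESeq2. *Fosb* alone had an unadjusted p under 0.05 (-0.86 ± 0.32, edgeR adjusted p = 0.111), against 27.2% of all genes, where 10.7% of all genes were called, or 0.63% with all libraries as labelled.

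The tissues were compared in PEL_10d mice, where all libraries matched their labels. There 6 members were lower in the hypothalamus than in the hippocampus and *Fos* was higher, against 60.6% of all genes called, 30.9% higher and 29.7% lower. *Arc* held 4.15, 4.91 and 5.68 FPKM in the hypothalamus and 30.0, 22.3 and 53.7 FPKM in the hippocampus, an 8.53-fold difference (-3.09 ± 0.31, edgeR adjusted p = 3.08e-05). *Nr4a1* held 6.16, 4.84 and 6.24 FPKM against 17.4, 14.9 and 25.5 FPKM (-1.99 ± 0.20, edgeR adjusted p = 3.18e-05). The tissues did not overlap for either gene.

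*Fosb* (-1.45 ± 0.21, edgeR adjusted p = 0.000291), *Egr1* (-1.36 ± 0.21, edgeR adjusted p = 0.000431), *Junb* (-1.32 ± 0.21, edgeR adjusted p = 0.000562) and *Egr2* (-1.09 ± 0.39, edgeR adjusted p = 0.0377) were lower in the hypothalamus too. *Fos* held 9.10, 8.79 and 19.3 FPKM in the hypothalamus against 3.07, 4.54 and 7.17 FPKM (1.08 ± 0.36, edgeR adjusted p = 0.0283), and was not called by DESeq2, nor without hippocampal PEL_10d 1 or 2 or hypothalamic PEL_10d 3. The *Egr2* call was lost in 4 of the 6 fits made with 1 library removed, those without hippocampal PEL_10d 3 or any hypothalamic library, and the edgeR adjusted p of both genes reached 0.118 (*Fos*) and 0.176 (*Egr2*). *Npas4*, *Ier2* and *Dusp1* were not called. Of 35 other rapid response genes tested, 11 were higher in the hypothalamus and 16 lower. *Egr3*, *Nr4a3* and *Egr4*, relatives of members, were lower, at -4.84 ± 0.16 (edgeR adjusted p = 4.69e-08), -3.65 ± 0.14 (edgeR adjusted p = 9.33e-08) and -3.41 ± 0.24 (edgeR adjusted p = 2.92e-06), and *Atf3* was higher, at 3.52 ± 0.38 (edgeR adjusted p = 4.4e-05). The neuron markers summed to 697.5 to 784.5 FPKM in the hypothalamus and to 1444 to 1497 FPKM in the hippocampus, with 3 of 4 lower and 1 higher in the hypothalamus. Of 7 microglia markers 5 were higher there and 1 lower, of 5 astrocyte markers 4 were higher, of 5 endothelial markers 2 were higher and of 5 choroid plexus markers 3 were lower, and their part in the difference was not tested.

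Across the 6 hypothalamic groups the order of mean levels was not shared by all members. *Fos*, *Fosb*, *Egr1*, *Npas4*, *Nr4a1* and *Arc* had their highest mean in Sham, and *Fosb*, *Egr1*, *Npas4*, *Nr4a1*, *Arc* and *Fos* their lowest in PEL_3d with GH. For *Fos* the order ran from Sham (18.7 ± 2.46 FPKM, SD, n = 2) through PEL_10d (12.4 ± 5.97, n = 3), PEL_10d with GH (11.5 ± 1.79, n = 3), PEL_3d (10.5 ± 3.98, n = 3) and Sham with GH (7.87 ± 1.40, n = 3) to PEL_3d with GH (7.85 ± 1.90, n = 3). Neighbours in this order did not differ beyond their spread, and the highest PEL_10d library lay inside the Sham range. *Ier2* had its highest mean in PEL_3d with GH (3.62 ± 0.24 FPKM, SD, n = 3) and its lowest in Sham with GH (2.15 ± 0.43, n = 3). *Junb* was highest in PEL_3d (14.8 ± 3.69 FPKM, SD, n = 3) and *Egr2* in PEL_10d (1.04 ± 0.36, n = 3). The *Egr2* counts bear this place out less, with 37, 25 and 28 in PEL_10d and 29 and 23 in Sham. Their log2 fold change was 0.129. *Dusp1* was highest in PEL_10d with GH (10.7 ± 2.14 FPKM, SD, n = 3), close to Sham (10.4 ± 1.39, n = 2).

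Likeness between members was measured over 17 hypothalamic libraries, which share groups, as Pearson's r between the log2(FPKM + 0.1) of a gene and the mean of the other 9. It was 0.87 for *Fos*, 0.83 for *Egr1*, 0.82 for *Nr4a1*, 0.81 for *Dusp1* and 0.78 for *Arc*. *Fosb* at 0.66 and *Npas4* at 0.64 followed less closely. *Junb* at 0.13, *Egr2* at 0.08 and *Ier2* at -0.22 did not follow the others, and they include both genes that were higher at day 3 with GH. Likeness rests on FPKM, which did not track the counts for *Egr2* and *Fosb*, and the part of this in their values was not tested. *Dusp1*, not called at day 3, was among the members that followed the others.

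Of 14272 other genes, those most like the mean of the 10 members were *Ptprk* (r = 0.84), *Mysm1* (0.80), *Pmfbp1* (0.79), *Utp14b* (0.78), *Baz1b* (0.78), *Zfp280d* (0.78), *Cobl* (0.77), *Btg2* (0.77), *Il34* (0.77) and *Ago3* (0.76). *Btg2*, an antiproliferative gene, is itself a rapid primary response gene and was lower with GH in Sham (-0.82 ± 0.12, edgeR adjusted p = 0.00705). Once values were centred within groups, 0 of these 10 genes were among the 10 most alike.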

How the data were processed

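The authors deposited 1 table of estimated counts and FPKM for 22274 genes. Symbols were found for 22219 by gene identifier. The study's methods name Hisat2, featureCounts and DESeq2, and the submitters' processing notes name GRCm38 (mm10). Of the deposited estimated counts 8.22% were not whole, none of them of a member, and they were rounded. Tests were run in edgeR 4.0.16 under R 4.3.3 (TMM, filterByExpr with a minimum count of 10, quasi-likelihood tests, Benjamini-Hochberg adjustment over all genes tested), each fit holding only the groups compared, over 13 comparisons. The procedure was run on simulated counts with a fixed dispersion and known changes in a small set of genes, a simpler setting than these data. Alternatives were all libraries as labelled, DESeq2's size factors, DESeq2 1.42.0, no filter, a replicate block, 1 fit over each tissue and each library left out in turn (88 fits). FPKM values were used as deposited, as log2(FPKM + 0.1) for likeness, over genes with a mean CPM (counts scaled by library total) of at least 1. Total counts of 15095267 to 17973494 set the precision, and errors are the spread between libraries. The text names all 10 members, up to 4 genes of each list (called, by size of change), the 10 genes of highest likeness and markers beside results they move with. The members and lists were chosen with earlier results of these data known. Promoter windows are from RefSeq, GRCm38.p6, and gene positions from the annotation of GRCm38. Windows that overlap an annotated exon were searched but not printed.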

Additional observations from a re-analysis of the deposited data

How the results depend on the processing

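Over the alternatives, 1461 of the member fold changes stayed on their side of the threshold, 68 lost a call and 31 gained one, and no called value changed direction. With all libraries as labelled, 1 member was called in PEL_3d against Sham (6 without the doubted libraries), 0 in PEL_10d against Sham (1) and 0 in Sham with GH against Sham (2). DESeq2 called 3 in PEL_10d against Sham. Without a filter on low counts 6 were called in Sham with GH against Sham. A fit over all groups of the tissue called 0 there, 4 in PEL_3d with GH against Sham with GH (7) and 0 in PEL_10d with GH against Sham with GH (3). Leaving out 1 library gave 3 to 7 calls in PEL_3d against Sham, 0 to 3 in PEL_10d against Sham, 0 to 1 in PEL_10d against PEL_3d, 1 to 3 in Sham with GH against Sham, 4 to 7 in PEL_3d with GH against Sham with GH, 0 to 4 in PEL_10d with GH against Sham with GH and 0 to 3 in the hippocampus. The share of all genes called in each of these fits is not given here, so the counts cannot be set against it. The cause of these changes in calls was not tested. With values centred within each group, 0 of the 10 genes most like the members were shared.

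The labels do not say what the replicate numbers mean. Correlations of same-numbered deviations from group means ranged from -0.292 to 0.224, and those of differently numbered ones from -0.267 to 0.313. So few libraries a group cannot exclude a pairing. With the replicate block, 7 members were called in PEL_3d against Sham, where 5470 of all 14905 genes were called. The block fits called 2 in PEL_10d against Sham (*Egr1* and *Nr4a1*, not *Fosb*) and 2 in PEL_10d against PEL_3d (*Arc* and *Nr4a1*). They called 6 in Sham with GH against Sham, 6 in PEL_3d with GH against Sham with GH and 3 in PEL_10d with GH against Sham with GH. They called 1 in the hippocampus (*Npas4*), 8 between the tissues and 0 in the other comparisons. Apart from PEL_3d against Sham, the share of all genes called is not given here, so those counts cannot be set against it. Each Sham group without GH held 2 libraries, and *Egr2* held 8 to 88 counts in a library.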
